A study of Mus musculus with 4 samples.

Results

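Collagen and laminin genes were described by RNA sequencing in primary neural stem cells of the mouse, with 2 libraries from wild type cells and 2 from Mettl4 knockout cells. The genes were chosen by name: every protein-coding gene whose symbol is Col, a number, the letter a and a number, or Lama, Lamb or Lamc with a digit. This gave 55 of the 55414 genes in the files, 44 collagen and 11 laminin genes, and each of them had an entry in every library. The cells came from cortex of E14.5 embryos. Both genotypes were expanded as floating spheres in medium with EGF and basic FGF, then plated as a monolayer on poly-D-lysine, a synthetic coating that is not a matrix protein. No source used here gives the strain, the deleted part of Mettl4 or how many embryos stand behind a library. The p-values therefore measure only how these libraries spread, and that spread may be technical.

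Collagens are built from 3 chains wound into a triple helix, and the choice of chains decides the assembly. Fibril-forming collagens make rods, type IV collagens make the sheet-like network of basement membranes, other collagens sit on fibril surfaces, and a few span the cell membrane. Laminins are cross-shaped trimers of an alpha, a beta and a gamma chain, and they form the other network of basement membranes. In the embryonic cortex, radial glia hold on to a laminin-rich basement membrane under the meninges, and meningeal fibroblasts and blood vessels make much of the collagen there.

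The libraries held between 12812064 and 19310668 counts. Levels are given as CPM, which stands for counts relative to the library total after TMM scaling, a correction for differences in RNA composition. Mettl4, which encodes an adenosine methyltransferase, read 63.6 and 66.5 CPM in the wild type and 15.6 and 17.5 CPM in the knockout (log2 fold change -1.97, SE 0.17, adjusted p = 0.0051 by the quasi-likelihood test of edgeR). Each of the 15 listed neural stem cell markers was at 1 CPM or more in every library. Markers of cells that make much collagen were mostly near the floor. Of 16 meningeal and fibroblast markers, 11 stayed under 1 CPM in all 4 libraries, with Foxc2 and Aldh1a2 at 0 counts and Dcn and Lum under 0.4 CPM. The exceptions were Prrx1, Pdgfra, Foxc1 and Ogn at 1 CPM or more in every library, and Twist1, which reached 1.13 CPM in wild type replicate 1. Of 10 mural markers, 6 stayed under 1 CPM, and of 12 endothelial markers 8 did, among them Cdh5, Cldn5 and Tie1. Of 10 microglia and macrophage markers 8 did. The summed markers of astrocytes were higher, at 503, 622, 639 and 536 CPM in wild type 1 and 2 and knockout 1 and 2. Among them Aldoc stood at 127 to 170 CPM, Slc1a2 at 84.5 to 135 CPM and Gja1 at 76.9 to 103 CPM. Gfap and S100b reached only 4.87 and 5.42 CPM. Aldh1l1 read 110 and 157 CPM in the wild type and 246 and 198 CPM in the knockout, without overlap. Its log2 fold change was 0.73 (SE 0.20, edgeR unadjusted p = 0.0037), and it did not pass over all genes. Log2 fold changes were above 0 in 2 of the 8 astrocyte markers and below 0 in 6. Neuron markers summed to 1021 to 1356 CPM, nearly all of it from Map2 at 998 to 1333 CPM. Syt1 reached 11.8 CPM, and Tubb3, Dcx, Rbfox3 and Snap25 reached 6.45, 6.48, 4.29 and 6.82 CPM. Neurod1 and Stmn2 stayed under 1 CPM. All 8 markers of the oligodendrocyte lineage had a positive log2 fold change, as 49.7% of all genes tested had. Of these 8, 3 were at an edgeR unadjusted p under 0.05, where 1.15% of all genes tested were higher, and 0 passed the adjusted threshold. Pdgfra is in both that list and the meningeal list.

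Many genes of the family were expressed at a low level and the rest hardly at all. At 1 CPM or more in every library were 28 of 55 genes (50.9%), 22 collagen and 6 laminin genes, against 56.1% of all 21927 protein-coding genes. A further 6 genes passed the low-count filter (edgeR filterByExpr, minimum count 10), so 34 members were tested, 27 collagen and 7 laminin genes. The other 21 lay under the filter. Levels of different genes are compared below per kilobase of exonic length, as CPM per kb. On that scale the median protein-coding gene among those at 1 CPM or more in every library stood at 6.36 CPM per kb, and only Lamc1 of the 55 members lay above it, at 8.80 ± 2.08 CPM per kb (SD, n = 4 libraries of both genotypes). The next members were Lama5 at 4.37 ± 2.05, Col9a3 at 3.95 ± 1.75, Col4a5 at 3.39 ± 0.805, Col5a2 at 2.77 ± 0.584 and Lamb2 at 2.697 ± 1.03 CPM per kb. Lamc1 exceeded Lama5 by 1.66-fold to 2.77-fold per length in each of the 4 libraries. From Lama5 to Lamb2, neighbours in this order lay within the spread of the libraries. Divided by coding length in place of exonic length, Lamc1 stayed at rank 1, while Col9a3 and Col5a2 moved to ranks 2 and 3 and Lama5 to rank 5.

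**Figure D1:**
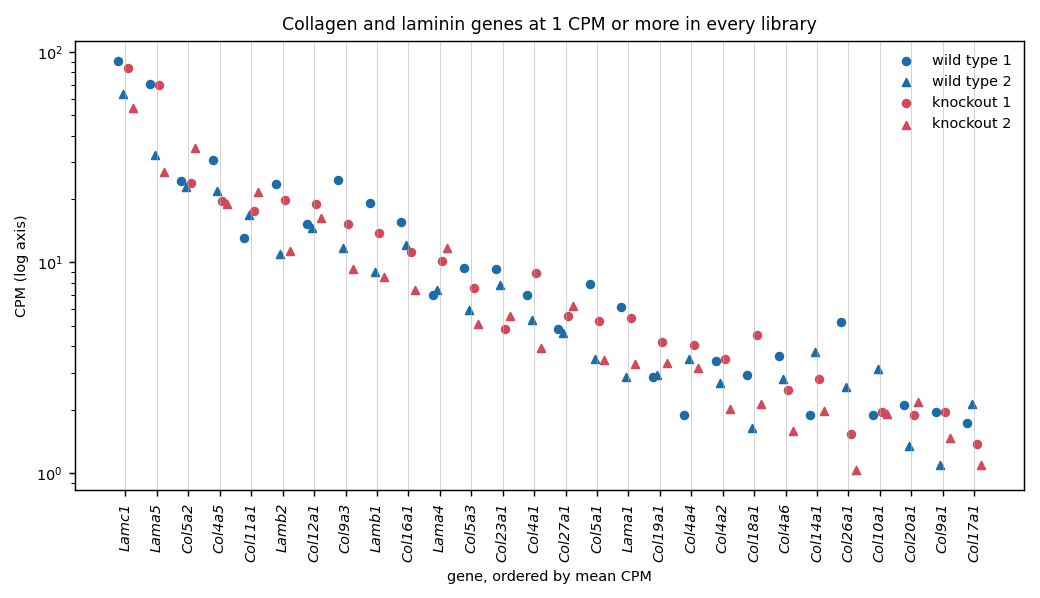
Level in CPM (vertical log axis) of the 28 collagen and laminin genes at 1 CPM or more in every library, ordered by mean; each point is a library (blue wild type, red knockout, circles replicate 1, triangles replicate 2). Lamc1 leads with 53.9 to 90.4 CPM, and most genes lie under 10 CPM.

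**Figure D2:**
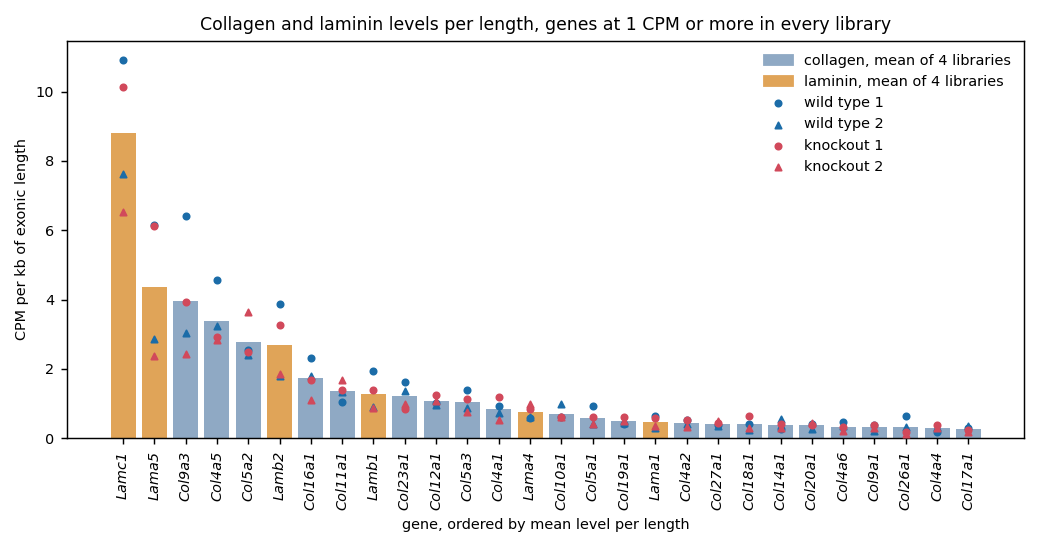
Mean level of the same 28 genes per kilobase of exonic length (bars, mean of 4 libraries, starting at 0) with the 4 libraries as points; orange bars are laminin and blue bars collagen genes. Lamc1 stands above the others at 8.80 CPM per kb.

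Among the laminin genes, the gamma chain Lamc1 and the alpha chain Lama5 were the most abundant, with the beta chains Lamb2 and Lamb1 next, which together provide the parts of complete trimers. Lamc1, the gamma chain shared by most laminins, read 90.4 and 63.0 CPM in the first and second wild type libraries. In the knockout it read 83.9 and 53.9 CPM, again in replicate order, which is kept below. The log2 fold change, knockout minus wild type, was -0.15 (SE 0.23, edgeR adjusted p = 1). The groups overlapped, and the difference between libraries of a genotype was larger than that between the genotypes.

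Lama5, the alpha chain of a widespread basement membrane laminin, read 70.1 and 32.5 CPM in the wild type and 69.6 and 26.8 CPM in the knockout. The log2 fold change was -0.09 (SE 0.50, 95% interval -1.30 to 1.12). Each genotype thus held a library near 70 CPM and a library near or under 33 CPM. Without knockout replicate 1, which left knockout replicate 2 alone in its group, the log2 fold change of Lama5 was -0.93. Without wild type replicate 1 or knockout replicate 2 its sign was positive (0.57 and 0.44), again with a lone library in that group.

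Lamb2, a beta chain known from the neuromuscular synapse and the kidney filter, read 23.5 and 10.95 CPM in the wild type and 19.9 and 11.3 CPM in the knockout (log2 fold change -0.14, SE 0.38). Lamb1, the other common beta chain, read 19.1 and 9.01 CPM and 13.7 and 8.52 CPM (log2 fold change -0.33, SE 0.36). Both beta chains were higher in replicate 1 of each genotype, as Lama5 and Lamc1 were. Per length, Lamb2 exceeded Lamb1 by 1.98-fold to 2.36-fold in each library.

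Lama4, an alpha chain best known from blood vessels, was the laminin gene with the smallest p between the genotypes. It read 7.00 and 7.42 CPM in the wild type and 10.2 and 11.7 CPM in the knockout, so both knockout libraries lay above both wild type libraries. The group means were 7.21 ± 0.297 and 10.98 ± 1.08 CPM (SD, n = 2 each), and the log2 fold change was 0.60 (SE 0.23, 95% interval 0.09 to 1.12). It did not pass over all genes (edgeR unadjusted p = 0.026, adjusted p = 1). Lama1, the alpha chain of early embryonic basement membranes, read 6.18 and 2.86 CPM and 5.48 and 3.28 CPM, and Lama5 exceeded it per length by 6.96-fold to 10.8-fold in each library. Lama2, the muscle and Schwann cell alpha chain, stayed between 0.527 and 0.852 CPM. Lama3 and Lamb3, an alpha and a beta chain of epithelia, were under the filter, Lama3 with 11, 4, 10 and 0 counts and Lamb3 with 4, 6, 11 and 9 counts in wild type 1, wild type 2, knockout 1 and knockout 2. Lamc3 had 0 counts in every library, which allows up to between 0.158 and 0.226 CPM (3 counts per library, counting error only).

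The 250 bases before the annotated start are shown for Lama5, Lamb1 and Lamb2, whose levels were high and low in the same libraries. They were taken from RefSeq on the build GRCm38.p6, 5′ to 3′ on the gene's strand, at chr2:180225860-180226109 (minus strand), chr12:31265043-31265292 (plus strand) and chr9:108479612-108479861 (plus strand). Capitals mark the GC box GGGCGG, the CCAAT box and the TATAAA box on either strand. Windows were found for 40 of the 55 members, and Lamc1 and Lama4 were not among them.
Lama5: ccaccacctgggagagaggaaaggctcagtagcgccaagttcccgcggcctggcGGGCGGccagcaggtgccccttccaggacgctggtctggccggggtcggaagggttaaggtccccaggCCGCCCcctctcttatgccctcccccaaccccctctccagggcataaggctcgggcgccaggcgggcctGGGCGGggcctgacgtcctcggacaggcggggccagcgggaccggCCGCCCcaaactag
Lamb1: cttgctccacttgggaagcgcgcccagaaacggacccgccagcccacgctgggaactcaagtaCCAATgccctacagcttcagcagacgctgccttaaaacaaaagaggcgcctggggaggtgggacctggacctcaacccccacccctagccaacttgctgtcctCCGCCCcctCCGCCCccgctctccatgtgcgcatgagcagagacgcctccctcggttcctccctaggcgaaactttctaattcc
Lamb2: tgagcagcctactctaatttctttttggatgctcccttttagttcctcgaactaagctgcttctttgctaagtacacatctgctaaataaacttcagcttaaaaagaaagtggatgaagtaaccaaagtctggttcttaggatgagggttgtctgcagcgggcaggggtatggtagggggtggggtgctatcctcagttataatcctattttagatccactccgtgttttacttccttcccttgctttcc
The Lama5 window held 4 GC boxes and the Lamb1 window 2 GC boxes and 1 CCAAT box, while the Lamb2 window held 0 of either. All 3 chains read higher in replicate 1 of each genotype, as Lamc1 and Lama1 did. A link between these motifs and the order of replicates was not tested. Of all 32851 windows of this length in the table, 32.7% held a GC box, 33.8% a CCAAT box and 12.4% a TATAAA box, against 24 (54.5%), 14 (31.8%) and 5 (11.4%) of the 44 windows of members. The GC box holds only G and C, and these shares were not matched for base composition. The median GC of all windows was 52.4%, and the Lama5, Lamb1 and Lamb2 windows held 72.4%, 62.0% and 43.6%. A match of letters is no binding site, and no binding data were used here.

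Among the type IV collagens, the genes of the basement membrane network, the X-linked Col4a5 stood above the chains that are most common in other tissues. Col4a5 read 30.7 and 21.8 CPM in the wild type and 19.6 and 19.0 CPM in the knockout, so both knockout libraries lay below both wild type libraries. The log2 fold change was -0.44 (SE 0.21, 95% interval -0.91 to 0.03, edgeR unadjusted p = 0.062, adjusted p = 1). Per length it exceeded Col4a1 by 2.43-fold to 5.35-fold in each library. Its neighbour on the X chromosome, Col4a6, whose chain pairs with that of Col4a5 in some basement membranes, read 3.62 and 2.80 CPM and 2.48 and 1.58 CPM (log2 fold change -0.65, SE 0.36), again with both knockout libraries below. Col4a5 exceeded Col4a6 by 9.24-fold to 14.2-fold per length. The annotated starts of the pair lie 1343 bases apart on opposite strands in RefSeq on GRCm38.p6. The 250 bases before the start of Col4a5, the type IV gene with the highest level, lie at chrX:141475169-141475418 (plus strand) and held 1 CCAAT box and 1 GC box, in capitals.
Col4a5: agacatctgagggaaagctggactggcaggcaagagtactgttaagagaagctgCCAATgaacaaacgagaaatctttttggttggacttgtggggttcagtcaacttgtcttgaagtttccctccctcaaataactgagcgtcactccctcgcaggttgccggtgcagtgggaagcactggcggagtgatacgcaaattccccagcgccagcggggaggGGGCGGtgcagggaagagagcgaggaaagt

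Col4a1 and Col4a2, whose chains make up the most widespread type IV collagen, are also arranged head to head, with annotated transcripts that overlap by 22 bases at their starts. Col4a1 read 7.00 and 5.36 CPM in the wild type and 8.95 and 3.93 CPM in the knockout (log2 fold change 0.07, SE 0.37). Col4a2 read 3.39 and 2.68 CPM and 3.48 and 2.02 CPM (log2 fold change -0.13, SE 0.36). The 4 libraries had the same order in both genes, with knockout replicate 1 highest and knockout replicate 2 lowest. Per length, Col4a1 exceeded Col4a2 by 1.73-fold to 2.28-fold. In the remaining pair, Col4a4 read 1.88 and 3.47 CPM and 4.05 and 3.17 CPM, and Col4a3 was under the filter with 3, 14, 10 and 10 counts. Of the exonic length of Col4a3, 5.65% overlaps exons of C430014B12Rik on the other strand, which had 10, 26, 16 and 18 counts, so reads there cannot be assigned without strand. The chains of Col4a3 and Col4a4 join that of Col4a5 in the kidney filter. Summed over the 6 type IV genes, the wild type libraries held 46.8 and 36.9 CPM and the knockout libraries 39.1 and 30.2 CPM, so the groups overlapped.

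Fibril-forming collagens were present as types V, XI and XXVII and nearly missing as types I, II and III. Col5a2, a chain of the collagen that starts fibrils, read 24.5 and 22.9 CPM in the wild type and 23.9 and 34.9 CPM in the knockout (log2 fold change 0.31, SE 0.21), where only knockout replicate 2 stood apart. Its partner chains Col5a1 (7.91 and 3.47 CPM, 5.27 and 3.44 CPM) and Col5a3 (9.41 and 5.96 CPM, 7.58 and 5.08 CPM) were lower per length in every library, Col5a1 by 2.74-fold to 8.96-fold. Both had replicate 1 above replicate 2 in each genotype, as Lama5, Lamb1 and Lamb2 did and Lama4 did not.

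Col11a1, a cartilage collagen chain that can assemble with type V chains, read 13.1 and 16.8 CPM in the wild type and 17.5 and 21.5 CPM in the knockout. Both knockout libraries lay above both wild type libraries, with a log2 fold change of 0.38 (SE 0.22, edgeR unadjusted p = 0.11). Its partner Col11a2 was under the filter, with 10, 8, 4 and 6 counts. Col27a1, another cartilage collagen, read 4.82 and 4.63 CPM and 5.58 and 6.23 CPM (log2 fold change 0.32, SE 0.26), also without overlap.

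The main collagens of fibroblasts were close to absent. Col1a1 had 2, 9, 4 and 0 counts in the same order of libraries, Col1a2 had 3, 7, 1 and 1, and Col3a1 had 5, 16, 6 and 11. Col2a1, the cartilage collagen, had 8, 8, 8 and 1 counts. The 6 type VI genes, also typical of fibroblasts, summed to between 0.304 and 1.13 CPM per library. In all, 10 members had no more than 10 counts over the 4 libraries together, and 2 of these, Lamc3 and Col6a5, had 0. In bulk libraries, fewer cells of a type and less RNA per cell cannot be told apart.

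Of the collagens that attach to fibrils, Col12a1, Col9a3 and Col16a1 were the highest in CPM. Col9a3, a chain of type IX collagen, read 24.7 and 11.7 CPM in the wild type and 15.2 and 9.34 CPM in the knockout (log2 fold change -0.56, SE 0.36). Its partners were far lower: Col9a1 lay between 1.10 and 1.96 CPM and Col9a2 between 0.527 and 1.58 CPM. Per length, Col9a3 exceeded Col9a1 by 8.33-fold to 16.6-fold. The Col9a3 count is uncertain in part, since 6.07% of its exonic length overlaps exons of Tcfl5 on the other strand, a gene at 1.28 to 2.68 CPM, and no source used here states whether strand was used in counting.

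Col12a1, found on fibrils of tendon and other dense tissue, read 15.3 and 14.6 CPM in the wild type and 18.9 and 16.3 CPM in the knockout (log2 fold change 0.24, SE 0.20), with both knockout libraries above. Col16a1 read 15.6 and 12.2 CPM and 11.3 and 7.43 CPM (log2 fold change -0.57, SE 0.26, edgeR unadjusted p = 0.057), with both knockout libraries below. Col14a1, Col19a1, Col20a1 and Col22a1 lay between 0.426 and 4.21 CPM.

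Col26a1 and Col23a1 had the smallest unadjusted p of the members in the knockout comparison. Col26a1, a secreted collagen with a short helix, read 5.197 and 2.56 CPM in the wild type and 1.53 and 1.04 CPM in the knockout. All 4 values were low, from 69 counts in wild type replicate 1 to 19 counts in knockout replicate 2, and the groups did not overlap. The means were 3.88 ± 1.87 and 1.28 ± 0.346 CPM (SD, n = 2 each), and the log2 fold change was -1.57 (SE 0.43, 95% interval -2.52 to -0.63, edgeR unadjusted p = 0.0040, adjusted p = 1). Leaving out the second wild type library gave a log2 fold change of -2.00, and leaving out the first knockout library gave -1.88. Each such fit had a lone library in that group. Without wild type replicate 1, the library where Col26a1 was highest, its log2 fold change was -0.99. Of the 4 tested mural markers, 2 had a negative log2 fold change, the smooth muscle genes Acta2 (-1.21, edgeR unadjusted p = 0.0078, adjusted p = 1) and Tagln (-1.16, unadjusted p = 0.028, adjusted p = 1), and neither passed over all genes. Acta2 read 6.63 and 3.65 CPM and 2.58 and 1.80 CPM. The other 2, Myh11 and Notch3, had log2 fold changes of 0.02 and 0.05. The part of these markers in the lower values of Col26a1 was not tested.

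Col23a1, a collagen that spans the cell membrane, read 9.34 and 7.85 CPM in the wild type and 4.84 and 5.57 CPM in the knockout. Both knockout libraries lay below both wild type libraries, with means of 8.60 ± 1.05 and 5.21 ± 0.515 CPM (SD, n = 2 each). The log2 fold change was -0.72 (SE 0.25, 95% interval -1.28 to -0.16, edgeR unadjusted p = 0.016, adjusted p = 1). The 250 bases before its start, at chr11:51289670-51289919 (plus strand, GRCm38.p6), are shown because it had the smallest unadjusted p of the members with a mean of 5 CPM or more. They held 1 GC box, in capitals.
Col23a1: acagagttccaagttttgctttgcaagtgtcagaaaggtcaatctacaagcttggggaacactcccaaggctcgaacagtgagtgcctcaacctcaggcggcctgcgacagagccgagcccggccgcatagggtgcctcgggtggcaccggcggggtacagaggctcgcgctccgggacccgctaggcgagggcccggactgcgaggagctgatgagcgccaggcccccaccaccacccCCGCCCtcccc

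Of the other membrane collagens, Col17a1 read 1.73 and 2.13 CPM and 1.37 and 1.09 CPM, Col25a1 stayed under 0.72 CPM and Col13a1 had 1 count in all. Col28a1, a collagen first described around nerves, read 1.36 and 0.791 CPM in the wild type and 1.53 and 3.39 CPM in the knockout (log2 fold change 1.21, SE 0.49, edgeR unadjusted p = 0.034, adjusted p = 1). Its higher mean lay mostly in knockout replicate 2. Col18a1, the basement membrane collagen that gives rise to endostatin, read 2.94 and 1.64 CPM and 4.53 and 2.13 CPM. Col10a1 read 1.88 and 3.10 CPM and 1.95 and 1.91 CPM, and lies within Nt5dc1 on the opposite strand (5.30 to 8.81 CPM), with 0.58% of its exonic length shared with the exons of that gene. A part of the exons of Col18a1, 33.5% of its exonic length, likewise lies within Slc19a1 on the opposite strand, with 0 bases shared between their exons.

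Between the genotypes, 0 of 34 tested members passed an adjusted p of 0.05 by edgeR, against 0.00502% of all 19912 genes tested, which is Mettl4 alone. By DESeq2 and by limma-voom 0 members passed as well, against 0.0301% and 0.00502% of all genes. At an unadjusted p under 0.05 there were 4 of 34 members by edgeR (11.8%), against 2.77% of all genes tested. Lama4 and Col28a1 were higher and Col26a1 and Col23a1 lower, where 1.15% of all genes were higher and 1.62% lower. DESeq2 and limma-voom gave 3 of 34 members each at that level, against 1.46% and 2.75% of all genes tested. With a library left out, a lone library stood for its group and 37 to 40 members passed the filter. The counts and medians below for such fits are therefore not out of 34. The edgeR count was 9 without wild type replicate 2 (4.16% of all genes) and 13 without knockout replicate 1 (8.87%). It was 3 without wild type replicate 1 (2.68%) and 3 without knockout replicate 2 (2.34%). Log2 fold changes were above 0 in 14 members and below 0 in 20, with a median of -0.11. Over all genes tested 9896 were above and 10016 below 0, with a median of -0.0013. The members' median was 0.27 without wild type replicate 1 and 0.05 without knockout replicate 2. Among the 27 collagen genes 13 were positive and 14 negative, and among the 7 laminin genes only Lama4 was positive. Both knockout libraries lay above both wild type libraries in 8 of 34 members, against 12.5% of all genes tested. They lay below in 6 members, against 14.8% of all genes tested, and in 20 members the groups overlapped. The median standard error of a member was 0.37, against 0.25 over all genes tested.

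**Figure D3:**
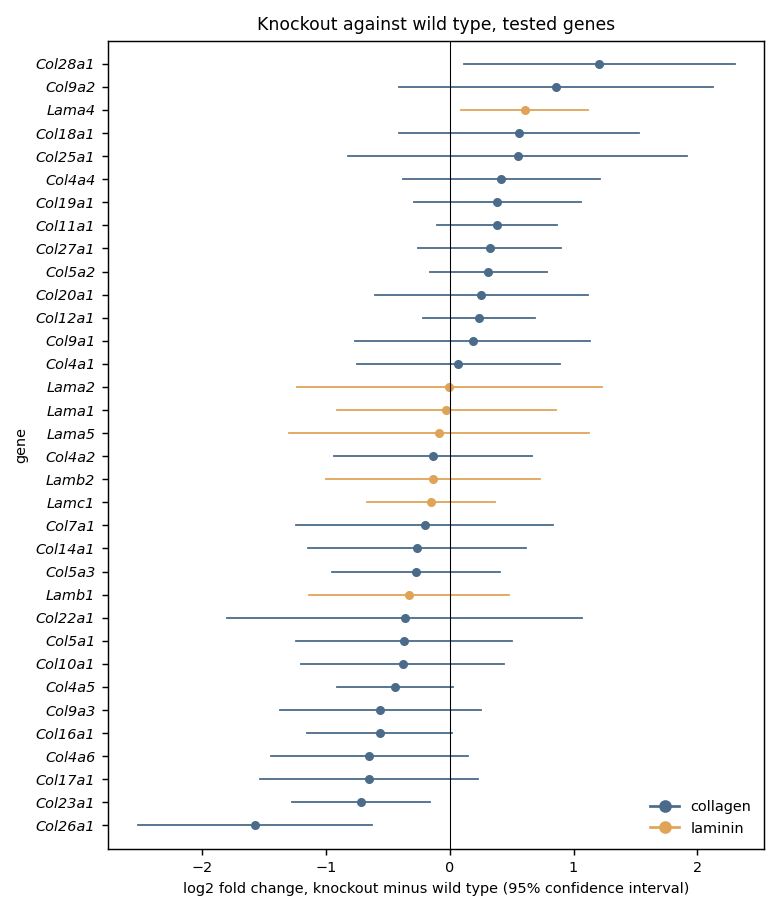
Log2 fold change, knockout minus wild type, of the 34 tested collagen and laminin genes (points) with 95% confidence intervals (lines), ordered by value; blue is collagen and orange laminin. The intervals of Col26a1, Col23a1, Lama4 and Col28a1 exclude 0, and none of the genes passed the threshold adjusted over all genes.

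For many members, as for many genes, libraries of the same genotype differed more than the genotypes. Both differences within a genotype exceeded the log2 fold change in 15 of 34 tested members (44.1%), against 50.5% of all genes tested. The share was 9 of 27 among collagen genes and 6 of 7 among laminin genes. At a mean of 5 CPM or more it was 8 of 16 members (50%), against 53.7% of all genes at that level. Of the 16 members with a mean of at least 5 CPM, 11 were lower in replicate 2 than in replicate 1 in both genotypes and 2 were higher in both. Over all genes at that level, 34.1% were lower and 35.9% higher in both. The members' median difference, replicate 2 minus replicate 1, was -0.44 on the log2 scale in the wild type and -0.59 in the knockout. For Lama5 these differences were -1.11 and -1.37, for Lamb2 -1.10 and -0.81, for Lamb1 -1.08 and -0.69 and for Col9a3 -1.08 and -0.70. Summed over the 11 laminin genes, the libraries held 218 and 128 CPM in the wild type and 205 and 117 CPM in the knockout. The 44 collagen genes summed to 201 and 163 CPM and to 176 and 165 CPM. The laminin sum thus differed more between replicates than between the genotype means of 173 ± 64.1 and 161 ± 62.0 CPM (SD, n = 2 each).

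Base composition moved with the difference between replicates over all genes tested. Over all genes tested with a GC value, the quintile of genes richest in G and C had a median replicate 2 minus replicate 1 difference of -0.21 in the wild type and -0.18 in the knockout, and the poorest quintile one of 0.12 and 0.09. The transcripts of Lama5, Lamb2 and Col9a3 held 59.9%, 58.8% and 59.2% GC, and that of Lamb1 52.5%. Other members rich in GC did not all differ alike between replicates. Col5a1 (58.0% GC) differed by -1.18 in the wild type and -0.61 in the knockout, and Col4a1 (57.7%) by -0.39 and -1.18. Col27a1 (59.4% GC) differed by -0.06 in the wild type and 0.16 in the knockout. For Col16a1 (61.4%) the differences were -0.36 and -0.60, and for Col5a3 (61.6%) -0.66 and -0.57. With each library's GC trend removed, differences of -0.87 and -1.17 remained for Lama5, -0.87 and -0.61 for Lamb2, -1.0 and -0.58 for Lamb1 and -0.85 and -0.49 for Col9a3 in the wild type and the knockout. The 10 mural markers summed to 67.4 and 31.0 CPM in the wild type and 57.6 and 36.0 CPM in the knockout, most of it from Notch3, which neural stem cells also express. Notch3 read 56.4 and 23.9 CPM and 52.0 and 31.0 CPM, and Acta2 was also lower in replicate 2 of both genotypes. Myh11 was higher in replicate 2 of both (0.527 and 1.03 CPM, 0.685 and 0.929 CPM), and Tagln in the knockout alone. The part of these markers in the spread of the members was not tested. The endothelial marker sum, from 7.70 to 9.72 CPM, and the meningeal and fibroblast sum, from 112 to 123 CPM, differed less between the replicates. Nearly all of the meningeal and fibroblast sum came from Prrx1, Pdgfra, Foxc1 and Ogn, with means of 60.2, 27.4, 19.2 and 9.28 CPM. In that list 11 of 16 markers were under 1 CPM in every library, so the sum hardly reflects them. The 15 neural stem cell markers summed to 6179 and 6622 CPM in the wild type and 6123 and 7061 CPM in the knockout. That sum was higher in replicate 2 of both genotypes, while single markers such as Notch1 (243 and 142 CPM, 231 and 129 CPM) were lower. Their part in the spread was not tested either.

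**Figure D4:**
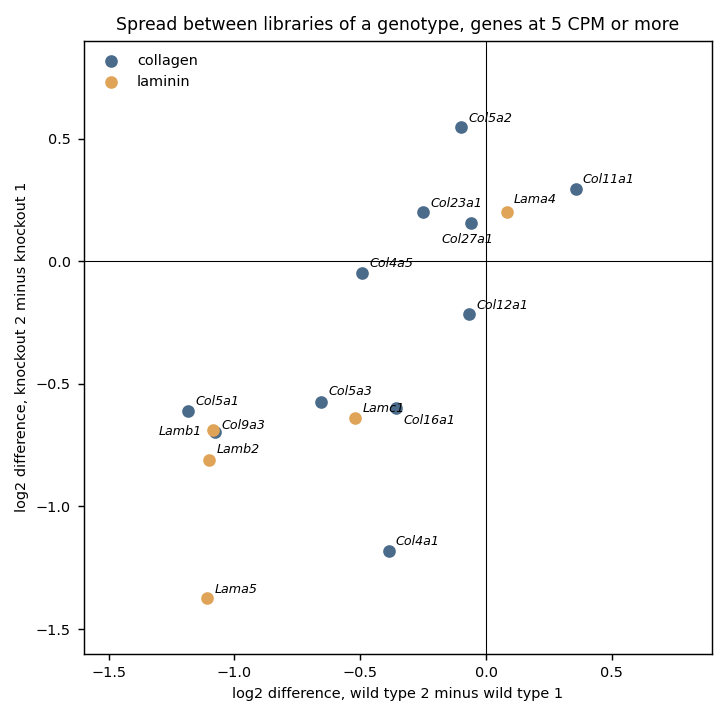
Log2 difference between the libraries of a genotype, replicate 2 minus replicate 1, in the wild type (horizontal) and the knockout (vertical) for the 16 members at 5 CPM or more; orange is laminin and blue collagen. Lama5, Lamb1, Lamb2, Col9a3 and Col5a1 lie at the lower left, low in replicate 2 of both genotypes, while Lama4 and Col11a1 lie at the upper right.

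Among genes that process, bind or surround these proteins, 0 of 123 tested passed an adjusted p of 0.05 by edgeR. Of the 34 listed enzymes and helpers of collagen maturation, 31 were tested. Their log2 fold changes were above 0 in 20 and below 0 in 11, with a median of 0.05. P4hb, a subunit of the prolyl hydroxylase that stabilises the helix, was at 213 to 232 CPM, and Ppib, a prolyl isomerase of the same pathway, at 155 to 230.3 CPM. Loxl2, an enzyme that crosslinks collagen, had the smallest p in this list: it read 4.22 and 3.41 CPM in the wild type and 7.74 and 7.65 CPM in the knockout, without overlap (log2 fold change 1.02, SE 0.26, edgeR unadjusted p = 0.0030, adjusted p = 1). Of 26 tested receptors of collagen and laminin, 11 were positive and 15 negative (median -0.09). Rpsa, a ribosomal protein that also serves as a laminin receptor, was at 1253 to 1885 CPM. Itgb1, the integrin beta chain shared by most of the receptors, was at 672 to 857 CPM, and the collagen-binding integrin chain Itga2 read 5.57 and 8.28 CPM and 9.53 and 11.97 CPM (log2 fold change 0.63, SE 0.27, edgeR unadjusted p = 0.041).

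Of 23 tested basement membrane partners, 8 were positive and 15 negative (median -0.08). Agrn, a heparan sulfate proteoglycan that binds laminin, read 180 and 93.7 CPM in the wild type and 162 and 92.0 CPM in the knockout, the same order of replicates as Lama5, and Smoc1, a calcium-binding matrix protein, lay between 83.0 and 132 CPM. Npnt, an integrin ligand, read 24.0 and 22.8 CPM and 19.0 and 14.0 CPM (log2 fold change -0.50, SE 0.21, edgeR unadjusted p = 0.038). Of 23 tested genes of the neural matrix, 10 were positive and 13 negative (median -0.02), led by Ptprz1, a receptor phosphatase that also yields a matrix proteoglycan, at 1582 to 1874 CPM. Ncan, a brain proteoglycan, read 548 and 359 CPM and 567 and 334 CPM. The proteoglycan gene Vcan read 108 and 143 CPM and 150 and 235 CPM (log2 fold change 0.62, SE 0.22, edgeR unadjusted p = 0.019, adjusted p = 1). Without knockout replicate 1, which left knockout replicate 2 alone in its group, the log2 fold change of Vcan was 0.91. Of 20 tested genes of matrix degradation, 11 were positive and 9 negative (median 0.06), led by the membrane protease gene Mmp15 at 231 to 351 CPM and Plat, which activates plasminogen, at 177 to 232 CPM. The protease inhibitor gene Timp4 was at 112 and 119 CPM and 80.5 and 82.6 CPM (log2 fold change -0.50, SE 0.14, edgeR unadjusted p = 0.0041, adjusted p = 1). Over these 5 lists, 3 of the 123 tested genes were higher and 4 lower at an unadjusted p under 0.05 in the edgeR test, where 1.15% and 1.62% of all genes tested were.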

How the data were processed

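RNA sequencing libraries of 2 wild type and 2 Mettl4 knockout neural stem cell cultures were used, 12812064 to 19310668 counts each. The authors deposited raw read counts, as whole numbers. STAR 2.7.10, featureCounts and GRCm39 are named in the submitters' processing notes, and no source used here states strand or multi-mapping settings.

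Symbols, gene types, exonic and coding lengths and transcript GC came from GENCODE M21, which is on the earlier build GRCm38, matched to 52133 of 55414 identifiers. Genes were filtered with filterByExpr (minimum count 10), scaled by TMM and tested with edgeR 4.0.16 (R 4.3.3), glmQLFit with robust=TRUE and legacy=TRUE, with Benjamini-Hochberg adjustment over 19912 genes and a threshold of 0.05. The SE is the absolute log2 fold change divided by the square root of F, and intervals are at 95%. Differences between libraries of a genotype used log2 CPM after 0.5 was added to each count. The test was also run on counts simulated independently for each library, with no shared difference between replicates and no GC trend. The outcome of that run is not given here. GC trends were splines with 5 degrees of freedom on log2 CPM. Promoter windows came from RefSeq on GRCm38.p6.

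Named genes are Mettl4, members at a mean of 5 CPM or more or at an unadjusted p under 0.05, their partner chains, the laminins, the fibroblast collagens and, of each matrix list, its most abundant genes and the smallest p. Other members were named after their values were seen. The values of 1 member under the filter are not reported here. Members and lists were chosen with earlier results of these data known. The alternatives were other scaling, filters and dispersion settings, DESeq2 1.42.0, limma-voom (limma 3.58.1), leaving out each library and a replicate block. Removal of the GC trend was added after seeing the data.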

Additional observations from a re-analysis of the deposited data

How the results depend on the processing

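The count of 0 called members was the same under each scaling, filter, tool and dispersion setting run, and with the replicate block. It was 1 (Col26a1, -1.49, edgeR adjusted p = 0.035) with the replicate block and GC trend removed together, and ran from 0 to 2 over the fits without a library, which assume that the lone library of a group varies like the others. The list genes Loxl2 (1.05), Vcan (0.59) and Timp4 (-0.49) also passed with the block and GC trend removed. The count of all called genes was 41 without a low-count filter, 6 by DESeq2, 9 with the replicate block and 85 with the block and GC trend removed, and ran from 1 (without knockout replicate 2) to 189 (without knockout replicate 1), with 46 without wild type replicate 1 and 26 without wild type replicate 2. At an unadjusted p under 0.05 the block gave 8 of 34 tested members by edgeR, against 7.83% of all genes tested. The replicate numbers carry no stated pairing; same-numbered libraries deviated together with a correlation of 0.20 across genes. The members' median log2 fold change ran from -0.44 to 0.27 without a library, so its sign rested on single libraries.

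Without a library in turn, log2 fold changes that changed sign ran as follows. Members and matrix genes spanned Lamc1 from -0.50 to 0.13, Lama5 from -0.93 to 0.57, Lamb2 from -0.60 to 0.51, Col9a3 from -1.0 to 0.069, Lamb1 from -0.77 to 0.31, Col5a3 from -0.59 to 0.086, Col4a1 from -0.64 to 0.54, Col5a1 from -0.85 to 0.33, Lama1 from -0.48 to 0.61 and Col4a2 from -0.58 to 0.20. Further values were Col18a1 from -0.085 to 1.02, Col14a1 from -0.66 to 0.35, Col10a1 from -0.68 to 0.048, Col20a1 from -0.035 to 0.60, Col9a1 from -0.18 to 0.64, Col7a1 from -0.44 to 0.0073, Col22a1 from -0.97 to 0.59, Lama2 from -0.29 to 0.41, P4hb from -0.012 to 0.10 and Ppib from -0.11 to 0.37. Further values were Rpsa from -0.23 to 0.36, Itgb1 from -0.059 to 0.27, Agrn from -0.57 to 0.44, Smoc1 from -0.034 to 0.54, Ptprz1 from -0.060 to 0.17, Ncan from -0.44 to 0.33, Mmp15 from -0.33 to 0.29 and Plat from -0.038 to 0.31.

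Values near 0 also changed sign elsewhere. Col4a1 was -0.029 by limma-voom and -0.018 with the replicate block. Lama1 was 0.049 by limma-voom, 0.015 with the GC trend removed and 0.032 with the block added. Lama2 was 0.0059 with RLE and 0.00074 with upper-quartile factors, 0.0055 unfiltered, 0.015 by DESeq2, 0.0078 by limma-voom, 0.017 with the block, 0.012 with the GC trend removed and 0.034 with both. Ncan was 0.0021 unfiltered, 0.033 with the GC trend removed and 0.019 with both, and Mmp15 0.024 and 0.026 in the latter fits. The cause was not tested.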
